A study of Lotus japonicus with 16 samples.

Results

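The 85 genes described here changed with temperature in Lotus japonicus shoots at both phosphate supplies and also changed with phosphate supply in roots. They were chosen on the authors' own calls: a gene had to be listed in both shoot comparisons and in at least 1 of the root comparisons. They were 28.9% of the 294 genes listed in both shoot comparisons, among 3958 genes listed in any of the 4 comparisons. As background to that share, at least 1 root comparison listed 2318 genes. The root comparisons tested 20129 genes at high temperature and 20175 at favorable temperature. Plants were the accession MG-20 of this model legume, grown in hydroponics and treated for 3 weeks, and poly(A) RNA was sequenced from their whole shoots and whole roots. Low P was 6.4 µM phosphate and sufficient P was 64 µM. High temperature (HT) meant days at 30 °C and nights at 29 °C, and favorable temperature (FT) meant days at 23 °C and nights at 22 °C. In each tissue the treatments were low P with HT, low P with FT, sufficient P with HT, and sufficient P with FT. Each of the resulting 8 groups had 2 libraries, and each library came from a pool of 3 plants. For each treatment 5 pools were grown, more than the libraries sequenced per group.

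Plants short of phosphate are known, mainly from Arabidopsis and rice, to switch on a shared program in roots and shoots. In it, PHR transcription factors, held back by SPX proteins while phosphate is plentiful, turn on genes for phosphate uptake, phosphatases and the exchange of phospholipids for other lipids. Warm growth below heat stress is known to act on plants through light receptors and growth hormones. The series asked how such warmth acts on plants short of phosphorus. The gene table used here gives each gene only a locus number, so no role is attached to any of the 85 genes, and they are grouped by direction.

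The shoot comparisons set HT against FT, once at low P and once at sufficient P. The root comparisons set low against sufficient P, once at HT and once at FT. A gene "rose" where the authors listed it as up-regulated and "fell" where they listed it as down-regulated. Every listed gene passed an adjusted p of 0.05 and changed by 1 log2 unit or more. The words are read as higher or lower at HT in shoots and at low P in roots. That orientation is not written in the tables, and all directions below depend on it. Group levels in normalised counts were derived from the authors' mean level and fold, with no value per library, so a level carries no error of its own. The fold carries the authors' standard error (SE). Normalised counts are not divided by gene length, so levels are compared between groups for 1 gene and not between genes. Whole organs were sequenced, in which fewer cells of a type and less RNA per cell cannot be told apart. Tissue markers could not be checked, because the tables list changed genes only.

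The choice of genes fixed that all 85 were listed in both shoot comparisons. In low-P shoots 46 rose and 39 fell at HT, where the authors listed 4.16% of the 20438 genes tested (1.74% rose and 2.43% fell). In sufficient-P shoots 52 rose and 33 fell, where 8.28% of 20144 were listed (4.51% rose and 3.77% fell). In HT roots 19 rose and 18 fell at low P, where 4.05% of 20129 were listed (2.27% rose and 1.78% fell). In FT roots 30 rose and 41 fell, where 10.1% of 20175 were listed (4.67% rose and 5.46% fell). These shares are the background and support nothing here, since the genes were chosen on the same calls. Of the 85 genes, 14 were listed in HT roots only, 48 in FT roots only and 23 in both. None of those 23 changed direction between the root temperatures, so each gene has a single root direction. It was a rise for 37 genes and a fall for 48.

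The genes fell into 4 shoot patterns. With warmth, 37 genes rose at both supplies, 24 fell at both, 15 fell at low P but rose at sufficient P, and 9 rose at low P but fell at sufficient P. The other 209 genes of both shoot comparisons, found in no root comparison, split into 97, 72, 19 and 21 in the same order. Opposite directions were seen in 24 of the 85 genes (28.2%) and in 40 of the 209 (19.1%), a difference that was not tested.

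Root direction was spread unevenly over these patterns. Of the 24 genes with opposite shoot directions, 22 went in low-P roots the way they went in sufficient-P shoots. The other 2 went the way of low-P shoots. Over all genes shared by FT roots and sufficient-P shoots, 260 of 352 (73.9%) also went the same way. For FT roots and low-P shoots 48 of 219 (21.9%) did. The shares for HT roots were 49.7% with sufficient-P shoots and 26.4% with low-P shoots. All 9 genes that rose in low-P shoots and fell in sufficient-P shoots had fallen in low-P roots. Of these 9, 8 were listed in FT roots only. Of the 15 with the reverse pattern, 13 had risen in low-P roots, 8 of them listed in FT roots only. A base mean of at least 100 was also required, in both shoot comparisons and in at least 1 root comparison. It left 5 of the 9 and 2 of the 15, and these 7 all went in roots the way of sufficient-P shoots. Among the 61 genes with the same direction in both shoot comparisons, 26 went the same way in roots and 35 the opposite way. The heat map of all folds shows these blocks.

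**Figure D1:**
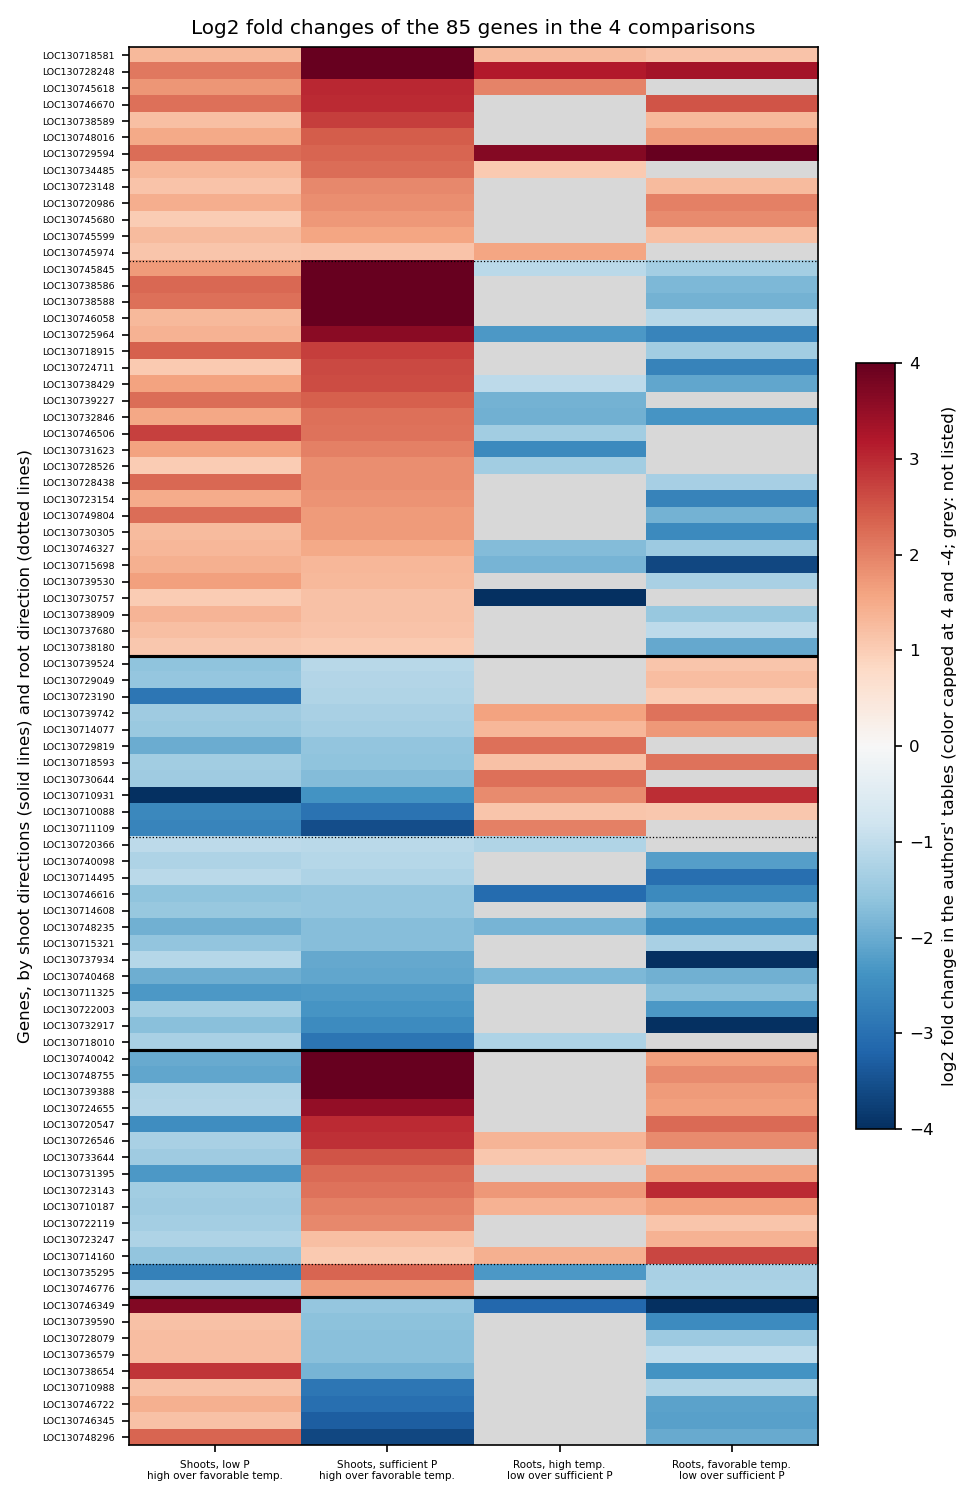
Log2 fold changes of the 85 genes (rows) in the 4 comparisons (columns) from the authors' deposited tables, red for higher and blue for lower at HT (shoots) or at low P (roots), grey where a gene was not listed, with HT written as high and FT as favorable temperature. Colors are capped at 4 and -4, dotted lines part the root directions, and solid lines part the shoot patterns with 37, 24, 15 and 9 genes, and in the block of 9 all listed root folds are blue.

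Of the 37 genes that rose in both shoot comparisons, 13 also rose in low-P roots. LOC130729594 led them by its least fold. Its level in low-P shoots was 19930.0 normalised counts at HT against 4232.7 at FT, and in sufficient-P shoots 8060.3 at HT against 1608.9 at FT. The rise was close to the same at both supplies, with log2 fold changes of 2.24 (SE 0.21) at low P and 2.32 (SE 0.22) at sufficient P in the authors' deposited tables. In HT roots it stood at 536 normalised counts at low P against 41.7 at sufficient P, and in FT roots at 754 against 30.5. Its root log2 fold changes, 3.68 (SE 0.40) at HT and 4.63 (SE 0.38, DESeq2 adjusted p = 9.78e-31) at FT, were the largest root rises among the 85 genes in the authors' deposited tables.

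LOC130728248 also rose in all 4 comparisons, but its shoot rise was larger at sufficient P. In low-P shoots it had 7338 normalised counts at HT against 1692 at FT. In sufficient-P shoots it had 1362 against 85.7. The log2 fold changes in the authors' deposited tables were 2.12 (SE 0.19) at low P and 3.99 (SE 0.26) at sufficient P, a difference of -1.87 (SE 0.32). Its root rises were nearly equal, with log2 fold changes of 3.18 (SE 0.25) at HT and 3.32 (SE 0.31) at FT in the authors' deposited tables.

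LOC130718581 was the third gene that rose in all 4 comparisons. In low-P shoots it had 15667 normalised counts at HT against 6347 at FT, and in sufficient-P shoots 11098 against 653. Its lowest derived level was with sufficient P and FT, read across tables that were normalised separately. The shoot fold was 1.30 (SE 0.31) at low P and 4.09 (SE 0.77) at sufficient P in log2 units in the authors' deposited tables. Across the 13 genes the median log2 fold change was 1.33 in low-P shoots and 2.33 in sufficient-P shoots, and all 13 had the larger fold at sufficient P.

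Among the 13, LOC130746670 changed by at least 4-fold in each comparison that listed it. It had 86.1 normalised counts at HT against 18.6 at FT in low-P shoots, and 56.5 against 7.10 in sufficient-P shoots. LOC130745680 had the smallest listed fold of the 85 genes and stood just inside the authors' limit, with 1.01 (SE 0.22) on the log2 scale in low-P shoots in the authors' deposited table. Genes just outside the limit are not listed, so their values cannot be set beside it.

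The other 24 of the 37 genes fell in low-P roots. LOC130738586 and LOC130738588, with 3 protein-coding genes between them in the RefSeq gene order of assembly LjGifu_v1.2, had nearly the same values. LOC130738588 had 1209 normalised counts at HT against 260.04 at FT in low-P shoots, and 1020 against 57.9 in sufficient-P shoots. LOC130738586 had 1346 against 277 in low-P shoots, and 1060.1 against 58.6 in sufficient-P shoots. LOC130738588 rose by log2 fold changes of 2.22 (SE 0.35) at low P and 4.14 (SE 0.28) at sufficient P in the authors' deposited tables. LOC130738586 rose by 2.28 (SE 0.34) at low P and 4.18 (SE 0.58) at sufficient P in log2 units in the authors' deposited tables. Both rises were thus larger at sufficient P. In FT roots LOC130738588 fell by 1.88 (SE 0.52) and LOC130738586 by 1.81 (SE 0.38) in log2 units in the authors' deposited table. Whether the pair shares reads was not tested, so the values may not be independent. LOC130738589, with 2 protein-coding genes between it and LOC130738588, also rose in both shoot comparisons but rose in FT roots (1.30 in log2 units in the authors' deposited table). No other genes of the 85 lay within 5 protein-coding genes of each other, and none were adjacent. Among the 209 genes in no root comparison, a larger set, 12 pairs lay within 5 protein-coding genes of each other, 5 of them adjacent.

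Of these 24 genes, 6 fell in both root comparisons. LOC130745845 had the largest rise of the 24 in sufficient-P shoots, to 424 normalised counts at HT against 8.68 at FT. In low-P shoots it had 1171 at HT against 361 at FT. Its log2 fold changes in the authors' deposited tables were 1.70 (SE 0.36) at low P and 5.61 (SE 0.42) at sufficient P. LOC130732846 was closer between supplies, with 1.56 (SE 0.40) at low P and 2.19 (SE 0.47) at sufficient P in log2 units in the authors' deposited tables. In roots it stood at 189 normalised counts at low P against 718 at sufficient P at HT, and at 191 against 984 at FT.

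LOC130715698 had the largest fall of the 24 in FT roots, to 227 normalised counts at low P against 2805 at sufficient P. In HT roots it stood at 1275 against 4677. The root log2 fold changes were -1.87 (SE 0.24) at HT and -3.63 (SE 0.35) at FT in the authors' deposited tables. LOC130730757 had the largest fitted root fall, with a level fitted under 1 at low P against 26.9 normalised counts at sufficient P in HT roots, so its fold is not a measured ratio.

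Of the 37 genes that rose in both shoot comparisons, 8 had the larger fold at low P and 29 at sufficient P. Their median log2 fold changes were 1.46 at low P and 2.17 at sufficient P. The 97 genes of the same pattern in no root comparison had medians of 1.58 at low P and 2.07 at sufficient P. Of them, 70 had the larger fold at sufficient P. The median SE of all genes chosen here was 0.382 at sufficient P and 0.313 at low P. Over all genes the authors listed, the median SE was 0.316 at sufficient P and 0.332 at low P. Some of the 37 genes had the larger SE at sufficient P and others at low P. The difference between the supplies was not tested, so these counts and medians describe the listed values alone. The plot of shoot folds sets the supplies against each other for each gene.

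**Figure D2:**
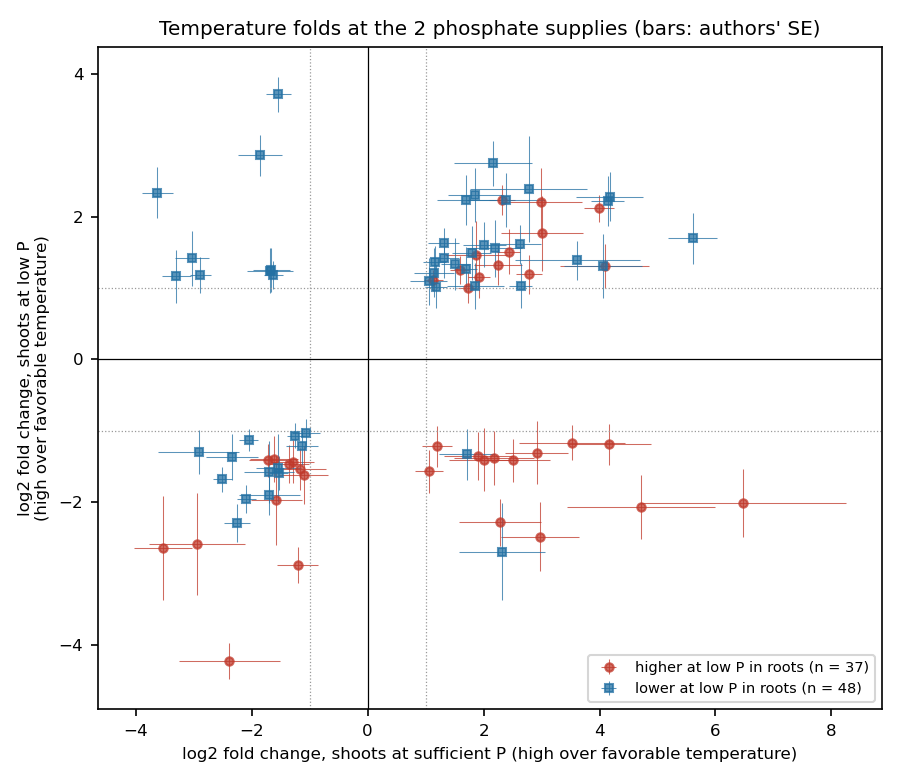
Log2 fold change, HT over FT, of each of the 85 genes in low-P shoots (y axis) and sufficient-P shoots (x axis), from the authors' deposited tables with their SE as bars; red circles rose and blue squares fell in low-P roots. The upper left quadrant holds 9 genes, all blue, and the lower right quadrant 15 genes, of which 13 are red.

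Of the 24 genes that fell in both shoot comparisons, 11 had risen in low-P roots. LOC130710931 had the largest fall of the 85 genes in low-P shoots, to 1457 normalised counts at HT against 27312 at FT. In sufficient-P shoots it had 1287 against 6747. Its log2 fold changes in the authors' deposited tables were -4.23 (SE 0.25, DESeq2 adjusted p = 1.20e-57) at low P and -2.39 (SE 0.87) at sufficient P. Across these separately normalised tables, the warm levels were close and the FT levels were not. In roots it rose to 17977 normalised counts at low P against 4842 at sufficient P at HT, and to 14916 against 1931 at FT. LOC130723190 was alike in shoots, with 204 normalised counts at HT against 1511 at FT at low P and 119 against 276 at sufficient P. Its rise in FT roots was the next smallest listed fold of the 85 genes, 1.01 (SE 0.27) in log2 units in the authors' deposited table.

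LOC130730644 was listed in HT roots only, at 811 normalised counts at low P against 176 at sufficient P. Its shoot log2 fold changes were -1.42 (SE 0.23) at low P and -1.72 (SE 0.33) at sufficient P in the authors' deposited tables. LOC130711109, also listed in HT roots only, had the largest fall of these 11 genes in sufficient-P shoots, -3.53 (SE 0.51) in log2 units in the authors' deposited table. Of the 11, 5 rose in both root comparisons while falling in both shoot comparisons. They are LOC130710088, LOC130710931, LOC130714077, LOC130718593 and LOC130739742, named because of their count and after their values were seen.

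The other 13 of the 24 genes fell in both shoot comparisons and in low-P roots, and 3 of them did so in both root comparisons. LOC130740468 was the most even of the 3. It fell to 293 normalised counts at HT against 1142 at FT in low-P shoots, and to 2443 against 10411 in sufficient-P shoots. Its 4 log2 fold changes lay between -2.09 and -1.80, with SE from 0.16 to 0.25, in the authors' deposited tables. LOC130748235 had shoot log2 fold changes of -1.91 (SE 0.27) at low P and -1.69 (SE 0.53) at sufficient P in the authors' deposited tables. Its root log2 fold changes were -1.86 (SE 0.45) at HT and -2.47 (SE 0.54) at FT in the authors' deposited tables. LOC130746616, the third, was the only one of the 3 with the larger root fall at HT, -3.08 (SE 0.32) against -2.56 (SE 0.29) at FT in log2 units in the authors' deposited tables. Of all 24 genes that fell in both shoot comparisons, 11 had the larger absolute fold at low P and 13 at sufficient P, with medians of -1.56 at low P and -1.66 at sufficient P. This split was close to even. Of the 72 genes of the same pattern in no root comparison, 44 had the larger fold at low P and 28 at sufficient P. Their medians were -1.63 at low P and -1.43 at sufficient P, and the difference between the sets was not tested.

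**Figure D3:**
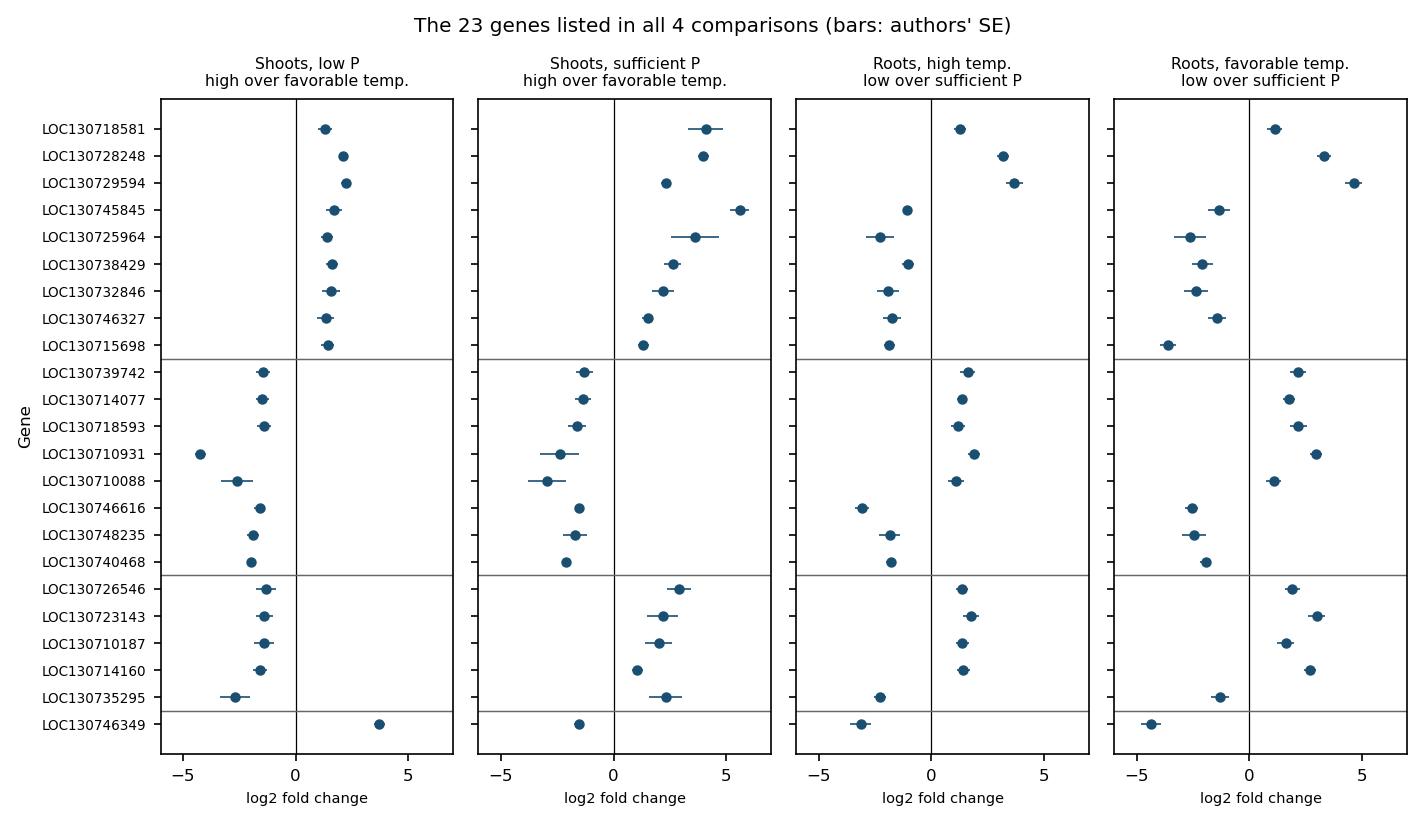
Log2 fold changes with the authors' SE (bars) of the 23 genes listed in all 4 comparisons, from the authors' deposited tables, with a panel for each comparison; grey lines part the shoot patterns. Of these genes 9 rose in both shoot comparisons, 8 fell in both, 5 fell at low P and rose at sufficient P, and LOC130746349 did the reverse, while the root panels show the same sign for each gene.

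The plot of the 23 genes listed in all 4 comparisons shows that 12 rose and 11 fell in low-P roots. Of the 23, 5 had the larger absolute root fold at HT and 18 at FT. The median absolute root log2 fold change was 1.75 at HT (median SE 0.29) and 2.18 at FT (median SE 0.37). The 23 genes were chosen on these same calls and the gap was not tested, so it describes the listed values alone.

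A set of 15 genes fell with warmth in low-P shoots and rose in sufficient-P shoots. LOC130726546 fell at low P to 139 normalised counts at HT against 345 at FT, and rose at sufficient P to 88.5 against 11.7. Its level was lowest with sufficient P and FT and highest with low P and FT, and the warm groups lay between, read across tables that were normalised separately. The shoot log2 fold changes in the authors' deposited tables were -1.31 (SE 0.44, DESeq2 adjusted p = 0.0425, near the limit) at low P and 2.92 (SE 0.54) at sufficient P. In low-P roots it rose by 1.37 (SE 0.27) at HT and 1.90 (SE 0.32) at FT in log2 units in the authors' deposited tables.

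LOC130710187 had the same order of groups. At low P it had 99.1 normalised counts at HT against 263 at FT, and at sufficient P 96.8 against 24.1. The warm shoots of both supplies were therefore at nearly the same derived level. LOC130714160 had 985 normalised counts at HT against 2925 at FT at low P, and 694 against 334 at sufficient P. LOC130723143 and LOC130714160 had the largest rises of this pattern in FT roots, 2.99 (SE 0.37) and 2.68 (SE 0.27) in log2 units in the authors' deposited table.

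The widest gap between the shoot folds was that of LOC130740042, -8.49 (SE 1.84) for low P minus sufficient P, but its level with sufficient P and FT was fitted under 1 normalised count. LOC130748755 came next, with a gap of -6.79 and a level of 1.02 normalised counts in that group. Gaps of this size rest on levels too low to give a measured ratio. LOC130739388 had 179 normalised counts at HT against 408 at FT at low P, and 109 against 6.04 at sufficient P. LOC130731395 had 107 against 519 at low P, and 59.3 against 12.2 at sufficient P. LOC130723247 had 2416 against 5637 at low P and 1045 against 456 at sufficient P, and the smallest gap, -2.42. The median gap of the 15 genes was -4.23, and the SE of the gaps ran from 0.38 to 1.84.

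Of the 15, only LOC130735295 and LOC130746776 had fallen in low-P roots. LOC130746776 had 62.9 normalised counts at HT against 159 at FT in low-P shoots, and 80.6 against 24.6 in sufficient-P shoots. Its fall in FT roots was -1.26 (SE 0.34) in log2 units in the authors' deposited table. LOC130735295 fell in both root comparisons, by 2.30 (SE 0.27) at HT and 1.29 (SE 0.40) at FT in log2 units in the authors' deposited tables. It had 9.68 normalised counts at HT against 62.7 at FT in low-P shoots and 61.9 against 12.4 in sufficient-P shoots, so the supplies nearly mirrored each other.

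The 9 genes that rose with warmth in low-P shoots and fell in sufficient-P shoots had all fallen in FT roots. LOC130748296 rose at low P to 227 normalised counts at HT against 44.8 at FT, and fell at sufficient P to 42.05 against 521. Its log2 fold changes in the authors' deposited tables were 2.34 (SE 0.36) at low P and -3.63 (SE 0.27, DESeq2 adjusted p = 8.98e-39) at sufficient P. This gap of 5.97 (SE 0.45) was the largest of the 9. LOC130738654 had 563 normalised counts at HT against 77.6 at FT in low-P shoots and 65.1 against 237 in sufficient-P shoots. In FT roots it had 124 normalised counts at low P against 654 at sufficient P.

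LOC130746349 was the single gene of the 9 listed in both root comparisons. Its root log2 fold changes were -3.15 (SE 0.48) at HT and -4.36 (SE 0.44) at FT in the authors' deposited tables. In shoots it rose at low P to 792 normalised counts at HT against 60.3 at FT, and fell at sufficient P to 181 against 526. The other 6 genes had low-P shoot folds between 1.16 and 1.42 in log2 units in the authors' deposited table, nearer to the limit of 1 than their folds at sufficient P. LOC130746345 is an example, with 1.16 (SE 0.38) at low P and -3.30 (SE 0.24) at sufficient P in log2 units in the authors' deposited tables. Over the 9 genes the gap, low P minus sufficient P, had a median of 4.45 and ran from 2.81 to 5.97, with SE from 0.26 to 0.51.

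**Figure D4:**
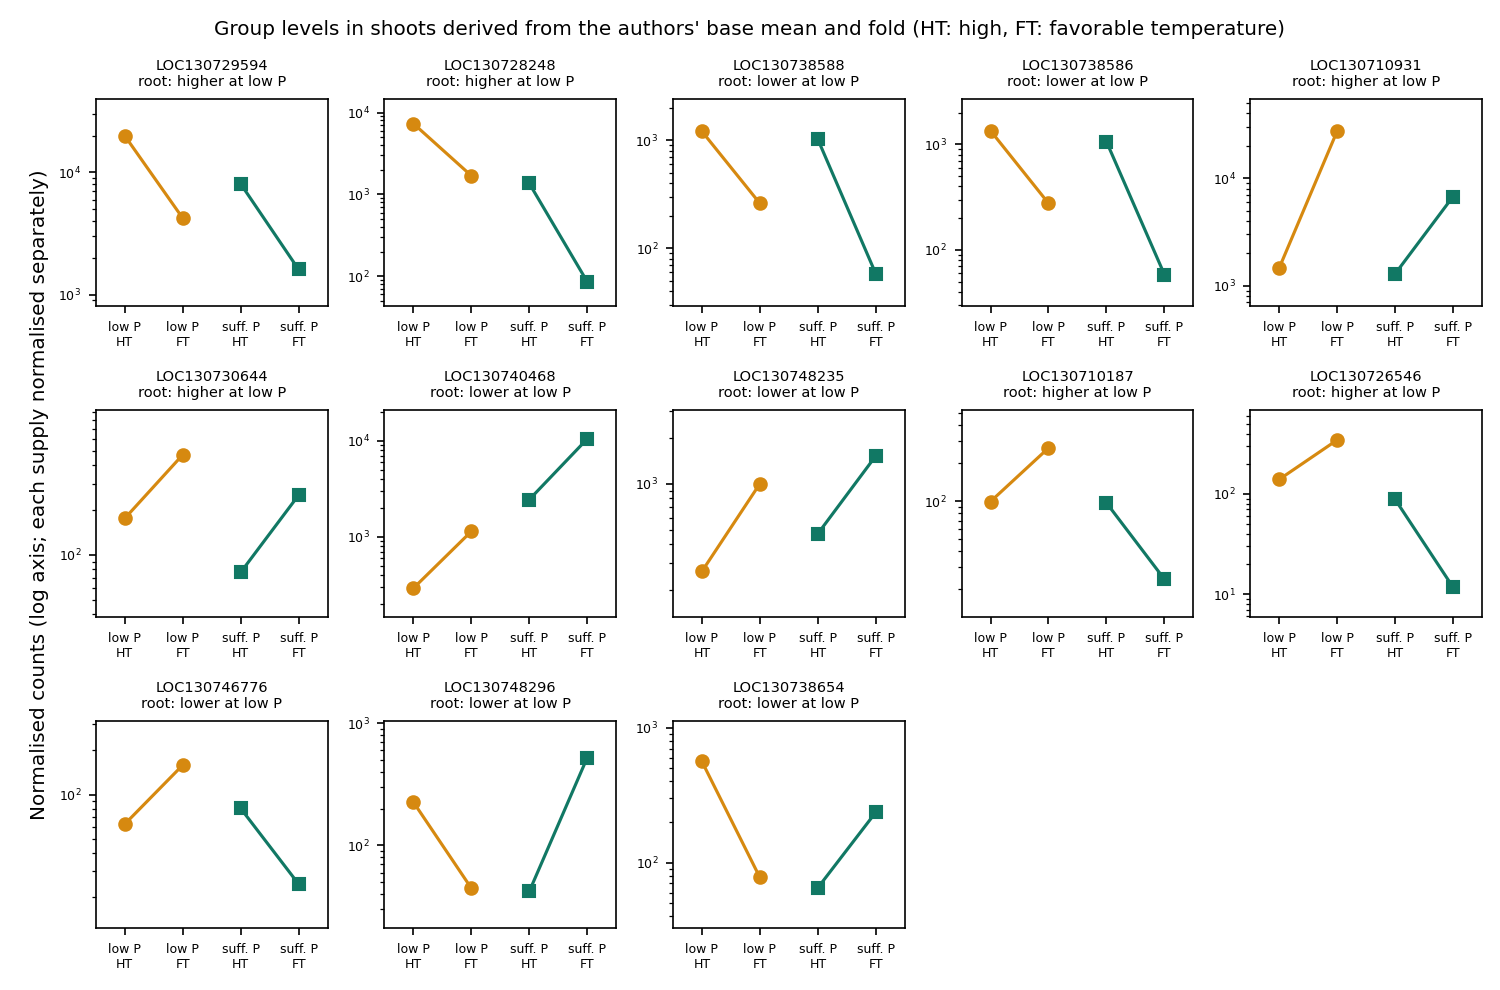
Derived shoot levels in normalised counts (log axis) of 13 genes chosen for their least fold within each shoot and root pattern, with HT left of FT; orange circles are low P and green squares sufficient P, each supply normalised separately. LOC130710187 and LOC130726546 slope in opposite ways at the supplies with warm levels near each other, and LOC130748296 and LOC130738654 show the reverse slopes.

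The shoot groups can also be read across the supplies. The ratio of low P over sufficient P was derived at each temperature from the levels in both shoot tables. The tables were normalised separately, so only shifts against other genes are described, and no error could be attached to a ratio. The 209 genes in no root comparison had median log2 ratios of 0.44 at HT and 0.53 at FT. For each gene the gap between its ratios at HT and FT equals the gap between its shoot folds, so the shoot pattern fixes that gap.

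Genes that had risen in low-P roots stood mostly higher in low-P shoots at FT. Of the 37 such genes, 33 had an FT ratio above the median of the 209, and their own median log2 ratio was 2.21. Of the 48 genes that had fallen in low-P roots, 20 lay above it, and their median was -0.10. Shoot pattern moved with this split: the 13 root-rise genes that fell in low-P shoots and rose in sufficient-P shoots all lay above it, and the 9 root-fall genes of the reverse pattern all lay below it. Of the 209, all 19 genes of the first pattern and 0 of 21 of the reverse one lay above it too. Within shoot patterns the split varied in size. Among genes that rose in both shoot comparisons, 13 of 13 with a root rise and 18 of 24 with a root fall lay above it, as did 70 of the 97 in no root comparison. Among genes that fell in both, 7 of 11 with a root rise and 0 of 13 with a root fall did, as did 15 of the 72 in no root comparison. At HT, 30 of the 37 and 24 of the 48 lay above the median of the 209, with medians of 0.78 and 0.42. These counts were not tested. Root and shoot libraries are separate but cover the same treatments, and the labels do not say whether they share plants.

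Among genes with opposite shoot directions, the supplies stood apart in different ways at each temperature. The 13 that rose in low-P roots, fell with warmth in low-P shoots and rose in sufficient-P shoots had a median log2 ratio of 0.66 at HT, near the 0.44 of the 209 genes, but 4.88 at FT. The 19 genes of the same shoot pattern in no root comparison had medians of -0.11 at HT and 3.50 at FT, so a high ratio at FT was not particular to the 13. At FT the ratio of each of the 13 was at least 3.13. It divides by the level with sufficient P and FT, which was very low for some of the 13. That level was 0.19 normalised counts in LOC130740042, 1.02 in LOC130748755 and 3.09 in LOC130724655. LOC130714160 and LOC130723247, which kept a base mean of at least 100, had FT ratios of 3.13 and 3.63. Both lie under the 4.88 of the 13. The 9 genes of the reverse pattern had medians of 2.13 at HT and -1.73 at FT, and the 21 such genes in no root comparison had 1.71 at HT and -1.67 at FT. The 13 genes that fell in roots and in both shoot comparisons were all below the medians of the 209 at both temperatures. LOC130740468 was the lowest of these, with ratios of -3.06 at HT and -3.19 at FT.

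**Figure D5:**
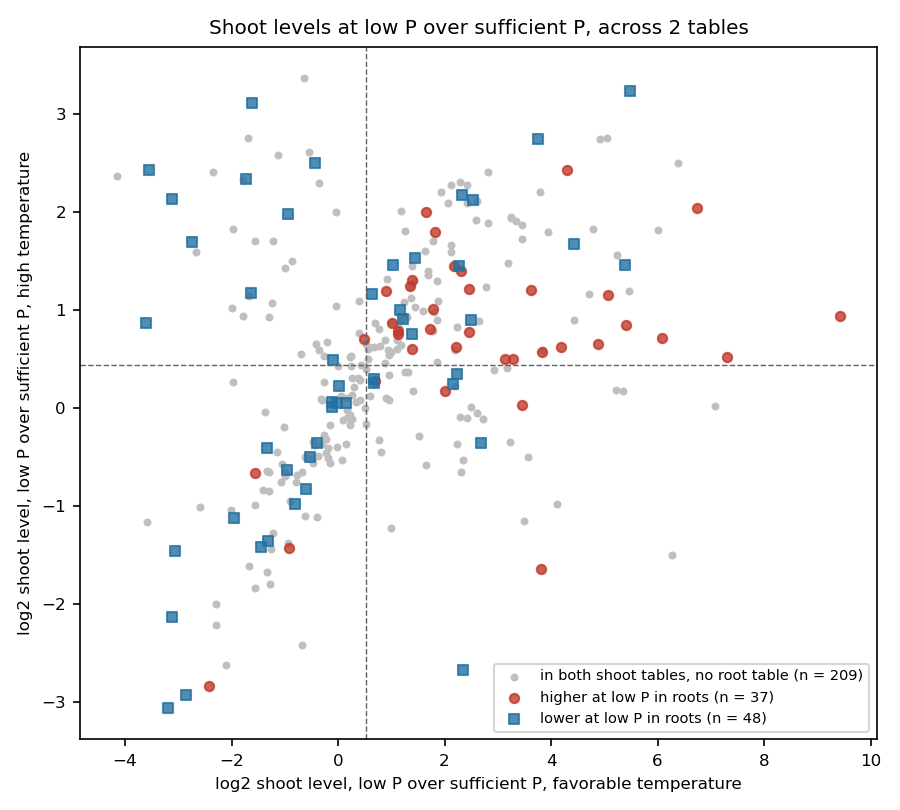
Log2 ratio of derived shoot levels, low P over sufficient P, at HT (y axis) and FT (x axis); red circles rose and blue squares fell in low-P roots, and grey points are the 209 genes in no root comparison, with their medians (0.44 at HT and 0.53 at FT) as dashed lines. Red points lie to the right of the vertical line for 33 of 37 genes, and blue points for 20 of 48.

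Of the 85 genes, 8 changed by at least 4-fold in both shoot comparisons and in a root comparison, and they spread over all shoot patterns. LOC130728248, LOC130729594 and LOC130746670 rose throughout. LOC130710931 and LOC130711109 fell in shoots and rose in low-P roots. LOC130720547 and LOC130735295 fell in low-P shoots and rose in sufficient-P shoots, and in roots the first rose and the other fell. LOC130748296 rose in low-P shoots and fell in sufficient-P shoots and in roots. LOC130720547 had 20.5 normalised counts at HT against 115 at FT in low-P shoots and 64.03 against 8.18 in sufficient-P shoots.

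Root and shoot directions were also counted for each pair of comparisons. Of the 37 genes listed in HT roots, 12 (32.4%) went the same way in low-P shoots and 17 (45.9%) in sufficient-P shoots. Over all genes shared by those tables, 33 of 125 (26.4%) and 81 of 163 (49.7%) did. Of the 71 genes listed in FT roots, 23 (32.4%) went the same way in low-P shoots and 42 (59.2%) in sufficient-P shoots. Over all shared genes, 48 of 219 (21.9%) and 260 of 352 (73.9%) did. If the tables of 1 tissue were read in the other orientation, each count would turn into its remainder.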

How the data were processed

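RNA from 16 libraries in 8 groups was sequenced. Per the submitters' processing notes, the tools were DESeq2 1.44.0, RSEM 1.3.3, FastQC 0.14.0 and Trimmomatic 0.39.2; the sources used here give no genome build. The 4 tables are the authors' own comparisons. Per the file headers, they hold a base mean (a signal: counts divided by size factors), a log2 fold change with its SE, a Wald statistic (a score), a p-value and an adjusted p-value. The deposited tables hold no values per library, so depth is unknown, no test could be run and every p is the authors'. Nothing says that the pools grew as separate cultures, so those p-values measure the spread between these libraries.

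Group levels came from base mean and fold, for 2 libraries a group, with Python 3.11.15 and pandas 2.3.3. The number of genes tested was recovered from the adjusted and raw p-values of the genes with the smallest p, and checked on simulated data. The simulated lists were cut on adjusted p alone, whereas the authors' lists were also cut on fold. Each recovered number is therefore at most the true one, and the shares listed could be smaller. All 85 identifiers matched RefSeq genes of assembly LjGifu_v1.2, used for names and gene order only.

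Members, groupings and alternatives were chosen with earlier results of these data known. Named genes had the greatest least fold over the tables listing them: up to 2 for each shoot and root pattern and 6 of those in all 4 tables, given a base mean of at least 50, which left 1 gene for the pattern that fell in low-P shoots, rose in sufficient-P shoots and fell in roots. The 2 with the smallest least fold were added, and the rest were picked after their values were seen. Promoter motifs, protein identity and pathway lists were not analysed here. Alternatives were stricter limits on fold, adjusted p or level, identical rows counted once, and listing in both root tables.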

Additional observations from a re-analysis of the deposited data

Results flagged for a closer look

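Temperature folds of opposite sign at the 2 phosphate supplies were found in shoots for 24 of the 85 genes, which is why they are given here. Of these, 15 had gaps (low P minus sufficient P, log2 scale) between -8.49 and -2.42, and the other 9 had gaps between 2.81 and 5.97. All 24 gaps were at least 2 combined SE, which opposite listed signs nearly ensure. The difference was not tested, since the genes were chosen on both folds.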

How the results depend on the processing

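No paired analysis was possible because library values are missing from the tables used here, and without them no second count tool, low-count filter or left-out library could be run. The promoter and protein alternatives were not run. Of 40 recomputed values, 20 stayed within 1.5 times (counts) or within the median SE (medians). None reversed, but none could, since counts have no sign and each median was taken over rises or falls alone. Counts under stricter limits can only fall. Asking for 4-fold changes in both shoot tables and in at least 1 root table left 8 genes, of which 3 had opposite shoot directions, 5 went in roots the way of sufficient-P shoots and 4 the way of low-P shoots. Their median log2 folds were 2.22 for rises and -2.67 for falls in low-P shoots, and 2.97 for rises and -3.53 for falls in sufficient-P shoots. An adjusted p under 0.01 left 52, 14, 28 and 16 genes in the order of those counts, against 85, 24, 48 and 28 as reported. A base mean of at least 100 in both shoot tables and in at least 1 root table left 43, 7, 25 and 18. Listing in both root tables left 23, 6, 11 and 7. Identical rows counted once changed none of the recomputed values, and could not, since no row of the 85 genes equalled another row. With depth unknown and 2 libraries a group, unlisted genes cannot be called unchanged.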

Other observations

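Several of the 85 genes had very different base means in the separately normalised shoot and root tables, given side by side for the same gene. Base means in both shoot tables were at least 10 times the root base mean for 7 genes and at most 0.1 of it for 11, the root table at the favorable temperature being used where it listed the gene. LOC130714495 had base means of 274441 normalised counts in shoots at low P and 285915 at sufficient P, against 552 in roots at the favorable temperature. LOC130732917 had 23070.0 and 79908 in shoots (low P and sufficient P), against 165 in roots, and LOC130737934 had 15830 and 33924 against 68.2. These 3 genes fell in both shoot comparisons and fell in low-P roots. LOC130737934 fell in FT roots to 1.02 normalised counts at low P against 135 at sufficient P. That low level is too small to give a measured ratio.

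At the other end, LOC130748755 had base means of 100.3 in shoots at low P and 13.9 at sufficient P, against 2619 in roots at the favorable temperature. LOC130740042 had 80.1 and 8.36 in shoots, against 1250.04 in roots. With warmth both fell in shoots at low P and rose at sufficient P, and both rose in low-P roots.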
